A study of Mus musculus with 16 samples.

Results

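House dust mite (HDM) extract reaches the airway epithelium as a mixture of microbial products, lipid-binding allergens and proteases, and the epithelial cell meets it with receptors for each. The 10 genes described here encode such receptors and their partners: the Toll-like receptor genes Tlr2, Tlr3, Tlr4 and Tlr5, the TLR4 partners Cd14 and Ly96, the adaptor Myd88, the protease-activated receptor genes F2r and F2rl1, and the NOD-like receptor gene Nlrp10. They were found by their symbols, and they are 10 of the 49315 gene identifiers in the count table. All 10 were measured in every library and all 10 passed the filter on low counts.

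RNA was sequenced from primary murine tracheal epithelial cell cultures (MTECs), which are grown from tracheas under an air-liquid interface. The cultures came from female (F) or male (M) mice labelled WT or KO for LMAN1, a lectin that carries glycoproteins out of the endoplasmic reticulum, and were left naive or given HDM at 20 µg/ml overnight. These choices give 8 groups, F WT naive, F WT HDM, F KO naive, F KO HDM, M WT naive, M WT HDM, M KO naive and M KO HDM, with 2 libraries in each and 16 in all. Tracheas of several mice were pooled for the cultures, so a library comes from a pool and not from a single animal, and the ages of the mice are not given in the sources used here.

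Counts per library ranged from 21860698 to 43442188. Lman1, the targeted gene, had 101 to 144 CPM (counts scaled to a common library size by edgeR's TMM method) in the 8 WT libraries and 12.8 to 78.1 in the 8 libraries labelled KO, of which 5 held more than 20% of the WT mean. Because the transcript was retained, the libraries are called "labelled KO" and every genotype comparison below is one of labels. Genes that define epithelium were abundant, with a summed level of 6560 to 9530 CPM over 7 markers. Markers of secretory cells summed to 13200 to 20300 CPM in all libraries other than those of the F HDM groups. Most of this was Cyp2f2, with means of 14140 to 18180 CPM in these other groups. Scgb1a1 was at 0.0861 to 3.46 CPM in the means of the 8 groups. Markers of ciliated cells summed to only 60.5 to 163 CPM. Leukocyte markers summed to 59.2 to 137 CPM over 10 genes, with the T cell gene Cd3e at 0 counts in 7 of the 8 groups, and endothelial markers reached at most 2.29 CPM. Fibroblast markers differed between replicates, at 27.4 and 547 CPM in F WT naive, 49.4 and 598 in F WT HDM and 4.11 and 158 in M WT naive MTECs.

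Toll-like receptors bind conserved parts of microbes. TLR2 senses bacterial and fungal lipoproteins and TLR5 senses flagellin at the cell surface, TLR3 senses double-stranded RNA in endosomes, and TLR4 senses lipopolysaccharide together with CD14, which hands the ligand over, and MD-2, the product of Ly96. Mite allergens of the group to which Der p 2 belongs resemble MD-2 in fold. All of these receptors other than TLR3 signal through MyD88 to NF-kB, and TLR3 uses a different adaptor, TRIF. The protease-activated receptors are G protein-coupled receptors that a protease switches on by cutting the extracellular end, PAR1 (F2r) chiefly by thrombin and PAR2 (F2rl1) by trypsin-like enzymes. NLRP10 is a cytosolic NOD-like receptor without the leucine-rich repeats of its relatives.

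Positions are those of GRCm38 in the GENCODE M21 annotation, in which all members are protein coding. Tlr2 (ENSMUSG00000027995) lies at chr3:83836272-83841767 on the minus strand, Tlr3 (ENSMUSG00000031639) at chr8:45395665-45411080 on the minus strand, Tlr4 (ENSMUSG00000039005) at chr4:66827584-66930284 on the plus strand and Tlr5 (ENSMUSG00000079164) at chr1:182954788-182976044 on the plus strand. Ly96 (ENSMUSG00000025779) lies at chr1:16688051-16709611 on the plus strand, and Myd88 (ENSMUSG00000032508) at chr9:119335934-119341411 on the minus strand. F2r (ENSMUSG00000048376) at chr13:95601803-95618487 and F2rl1 (ENSMUSG00000021678) at chr13:95511732-95525227 are neighbours on the minus strand of the same chromosome, and Nlrp10 (ENSMUSG00000049709) is at chr7:108921852-108930178 on the minus strand. Counts per library ran from 26 for Tlr5 to 22392 for Cd14. Exons of Tlr3 overlap the antisense gene Gm45542, which had at most 7 counts in any library. Exons of Myd88 overlap those of Acaa1a on the other strand, and without a stated strand setting their shared reads cannot be told apart. Acaa1a, a peroxisomal thiolase gene, was at 117 and 112 CPM in F WT naive and 95.4 and 91.9 CPM in F WT HDM MTECs.

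Promoter windows of 5 of the 10 members, Cd14 having been left out of this search, were matched in RefSeq's sequences for GRCm38.p6. These windows run from 250 bases before the start site to 50 after it. They were searched on both strands for an NF-kB motif (GGGA and TTCC with any 2 bases between them), an IRF motif (GAAA and GAAA with any 2 bases between them) and an AP-1 motif (TGANTCA), since these factors act downstream of the receptors. One match was found for each of Tlr3, Myd88 and F2r, and none for Tlr2 and Tlr5 with the motifs as written. The Tlr2 window holds the letters GGGAATTCCC, which are close to the NF-kB motif but do not match it as written. The windows with a match are shown, with the match in capitals, 5′ to 3′ on the gene's own minus strand and cut to the part that no annotated exon covers. For Tlr3 only the 30 bases around the match are shown, because other Tlr3 transcripts of GENCODE M21 start further upstream and place the match in their first exon.
Tlr3: gcctagttgtttctGGGAGTTTCCtgcttt
Myd88: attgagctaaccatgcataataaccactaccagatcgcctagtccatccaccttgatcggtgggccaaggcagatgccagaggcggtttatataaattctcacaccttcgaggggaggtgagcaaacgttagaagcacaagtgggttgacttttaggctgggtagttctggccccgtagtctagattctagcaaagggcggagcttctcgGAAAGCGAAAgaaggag
F2r: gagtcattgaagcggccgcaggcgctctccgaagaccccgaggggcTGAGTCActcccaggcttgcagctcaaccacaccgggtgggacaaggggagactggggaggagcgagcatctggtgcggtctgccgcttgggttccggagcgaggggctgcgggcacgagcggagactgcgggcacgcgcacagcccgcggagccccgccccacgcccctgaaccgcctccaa
The Tlr3 stretch is chr8:45410576-45410605 and holds an NF-kB match that begins 211 bases ahead of the RefSeq start. The Myd88 stretch is chr9:119340042-119340268 with an IRF match that begins 40 bases ahead of the start, and it lies in an intron of a longer annotated Myd88 transcript that starts upstream. The F2r stretch is chr13:95618488-95618716 with an AP-1 match that begins 204 bases ahead. Among all 32851 RefSeq windows of the same length, 1.47% held the NF-kB motif, 3.44% the IRF motif and 7.81% the AP-1 motif. A match describes these letters only, and none of the factors was measured on DNA.

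Per kilobase of exon, which allows genes to be set side by side, Cd14 was the most abundant member in all 8 groups, with group means of 174 to 391 CPM per kb, and F2r was next, at 48.1 to 71.8. In F WT naive MTECs the order below these was Myd88 (21 CPM per kb), F2rl1 (13.7), Ly96 (7.52), Tlr3 (4.86), Tlr4 (4.46), Tlr2 (2.33), Nlrp10 (0.771) and Tlr5 (0.405). In F WT HDM MTECs Tlr3 came next after F2r, at 33 CPM per kb, above F2rl1 (21.5) and Myd88 (14.3). Tlr4 (2.59 CPM per kb) came below Tlr2 (4.34) there, and its 2 libraries overlapped in level with those of Nlrp10 (2.15). Tlr5 was lowest in all 8 groups, at 0.242 to 0.782.

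**Figure D1:**
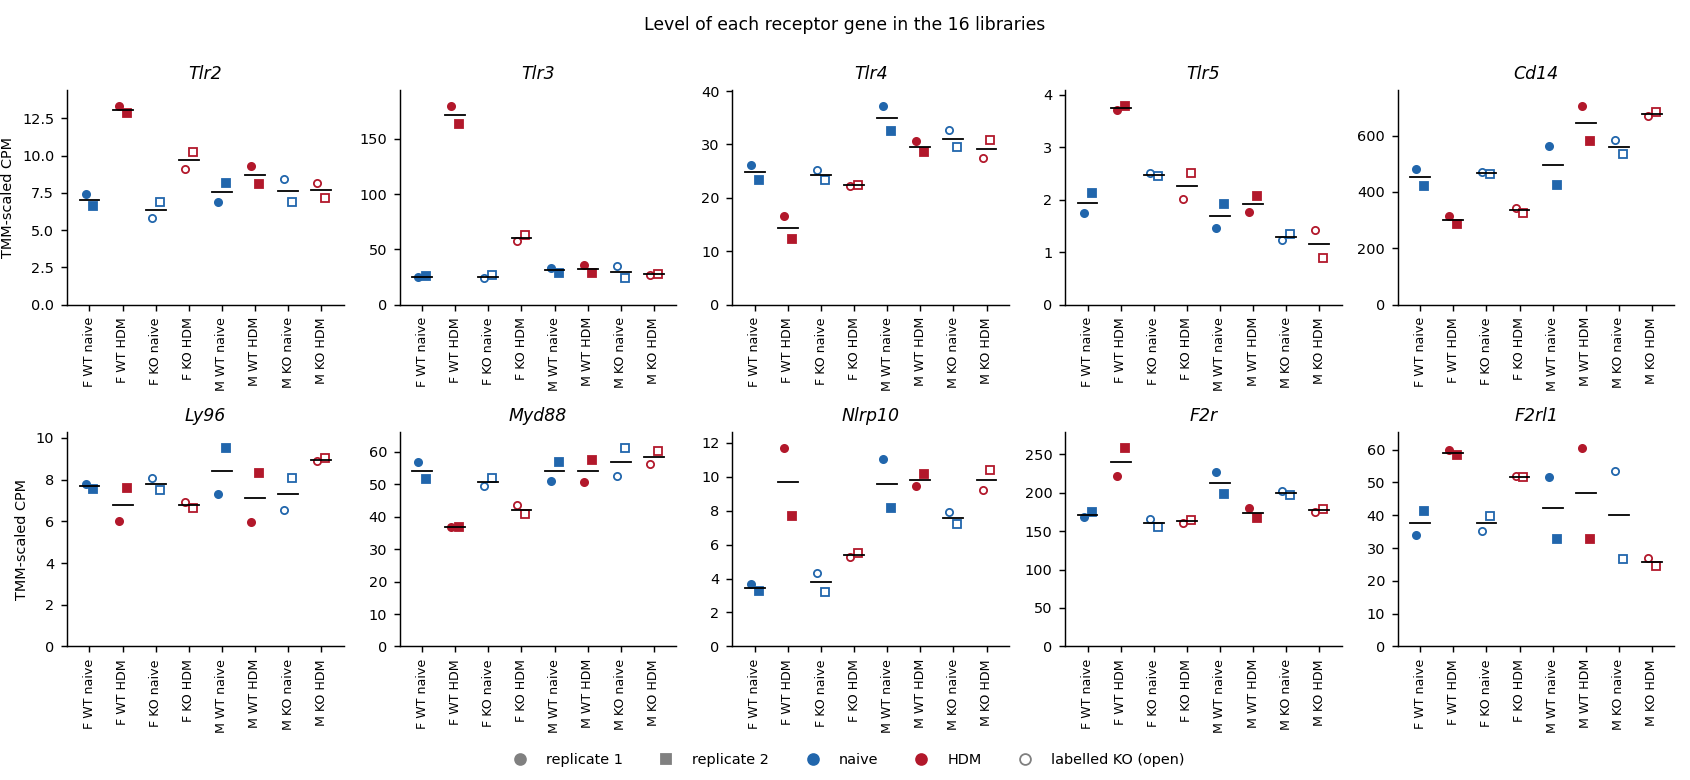
Level of each of the 10 receptor genes in the 16 libraries, as TMM-scaled CPM on a linear axis that starts at 0 in each panel. Circles are replicate 1 and squares replicate 2, blue is naive and red HDM, open symbols are libraries labelled KO, and black lines are group means. Tlr3 in F WT HDM MTECs, at 164 and 180 CPM, stands above all other libraries, while F2rl1 differs between replicates in 3 of the M groups.

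The first question was how each receptor responded to HDM. In F WT MTECs, 8 of the 10 members changed, against 43.1% of the 15993 tested genes (6887 genes). Tlr2, Tlr3, Tlr5, Nlrp10 and F2r rose, and Tlr4, Cd14 and Myd88 fell, so that in the group as a whole the surface receptor for lipopolysaccharide and its partner moved opposite to the other Toll-like receptors. F2rl1 and Ly96 did not pass the test. The median log2 fold change over the 10 members was 0.57, against -0.02 over all tested genes. The members were chosen with earlier results of these data known, so their counts and medians describe them and do not test them as a set.

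Tlr3 showed the widest difference among the members. It was at 24.7 and 25.9 CPM in F WT naive MTECs and at 180 and 164 CPM in F WT HDM MTECs. The groups lay far apart relative to the gap between replicates, with a 6.78-fold rise (log2 fold change 2.76, standard error 0.16, adjusted p = 4.81e-07). Fits that left out 1 library leave a group with a single library, which is then assumed to vary like the other groups. With any 1 of the 4 libraries left out, the log2 fold change of Tlr3 stayed between 2.69 and 2.83 and the gene was called. The antisense gene Gm45542 held 7 and 0 counts in the F WT HDM libraries.

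Tlr2 was at 7.45 and 6.61 CPM in F WT naive and at 13.3 and 12.8 CPM in F WT HDM MTECs. The 2 groups did not overlap and the gene rose 1.86-fold (log2 fold change 0.90, standard error 0.16, adjusted p = 0.000809). Tlr5, the flagellin receptor, is rare in these cells and was at 1.74 and 2.13 CPM in naive and 3.7 and 3.79 CPM in HDM libraries. Its rise was 1.92-fold (log2 fold change 0.94, standard error 0.25, adjusted p = 0.00959). Without F WT naive replicate 1, the log2 fold change of Tlr5 was 0.80 and the call was lost (adjusted p = 0.08).

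Tlr4 moved the other way, from 26.2 and 23.3 CPM in F WT naive to 16.6 and 12.3 CPM in F WT HDM MTECs (log2 fold change -0.78, standard error 0.14, adjusted p = 0.000842). Cd14 (ENSMUSG00000051439, chr18:36725067-36726798, minus strand), which lacks a cytosolic part and presents ligand to TLR4, was at 483 and 421 CPM in naive and 316 and 286 CPM in HDM libraries. It fell 1.5-fold (log2 fold change -0.59, standard error 0.13, adjusted p = 0.00404). Ly96 was at 7.81 and 7.55 CPM in naive and 6.03 and 7.58 CPM in HDM libraries, and these ranges overlapped (log2 fold change -0.18, adjusted p = 0.488). Within the TLR4 receptor complex, then, the receptor and CD14 passed the test and the MD-2 gene did not. Myd88 was at 56.7 and 51.7 CPM in naive and 36.8 and 36.9 CPM in HDM libraries (log2 fold change -0.56, standard error 0.10, adjusted p = 0.00074).

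Macrophages carry much of the Cd14 and Tlr4 of a whole airway, so leukocyte genes were read beside these values. The 10 leukocyte markers summed to 126 and 95 CPM in F WT naive and 64.8 and 68.5 CPM in F WT HDM MTECs. Of the 9 tested, 4 fell, which is 44.4%. Over all tested genes 43.1% were called in this response and 22.4% were called lower. The share of these cells in the values of Cd14, Tlr4 and Myd88 was not tested, and in bulk RNA fewer cells of a type and less RNA per cell cannot be told apart. Markers of the epithelial subtypes also moved: all 7 secretory markers (100%) fell in F WT MTECs, with a median log2 fold change of -5.3. They summed to 17400 and 13200 CPM in naive and 4660 and 3770 CPM in HDM libraries. Most of each sum was Cyp2f2, at a mean of 14660 CPM in naive and 4200 CPM in HDM libraries. Of the 7 basal cell markers 4 fell (57.1%), with sums of 9840 and 10800 CPM in naive and 4490 and 2380 CPM in HDM libraries. Of the 7 ciliated markers 4 fell (57.1%), with a median log2 fold change of -1.96. Among the 7 squamous markers 3 fell and 1 rose (57.1%), and among the 7 general epithelial markers 2 fell and 4 rose (85.7%). The part of these shifts in the receptor values was not tested.

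Among the protease receptors, F2r was at 168 and 174 CPM in F WT naive and 221 and 258 CPM in F WT HDM MTECs. The increase was 1.4-fold (log2 fold change 0.48, standard error 0.09, adjusted p = 0.000895) and the 2 groups did not overlap. F2r is also a gene of mesenchymal cells. The fibroblast markers summed to 27.4 and 547 CPM in F WT naive and 49.4 and 598 CPM in F WT HDM MTECs. Of the 8 markers, 2 were called higher under HDM (25%), where 43.1% of all tested genes were called and 20.6% were called higher. In both F WT groups and in F KO naive MTECs the library with the higher fibroblast sum had the higher F2r level. In F KO HDM MTECs and in every M group that library had the lower F2r level. In M WT naive MTECs, for example, fibroblast sums were 4.11 and 158 CPM and F2r was at 227 and 199 CPM. The part of these cells in F2r was not tested. F2rl1 was at 33.9 and 41.3 CPM in naive and 59.8 and 58.3 CPM in HDM libraries. Although these values did not overlap, the change was not called (log2 fold change 0.65, standard error 0.32, adjusted p = 0.126). F2rl1 was called in a fit of these 4 libraries alone (adjusted p = 0.00991), without the filter on low counts (9.65e-07) and with a replicate block within each sex and genotype (0.0165). Nlrp10 was at 3.71 and 3.24 CPM in naive and 11.7 and 7.67 CPM in HDM libraries. It rose 2.8-fold (log2 fold change 1.49, standard error 0.22, adjusted p = 0.000308), with unequal HDM replicates.

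In F MTECs labelled KO, 3 of the 10 members passed the test, against 10.4% of all tested genes (1664 genes). Tlr3 was at 24 and 26.5 CPM in F KO naive and at 58 and 63.1 CPM in F KO HDM MTECs, a 2.4-fold rise (log2 fold change 1.26, standard error 0.16, adjusted p = 0.000901). Tlr2 was at 5.81 and 6.91 CPM in naive and 9.12 and 10.2 CPM in HDM libraries (log2 fold change 0.61, standard error 0.16, adjusted p = 0.0309). Cd14 was at 470 and 463 CPM in naive and 344 and 327 CPM in HDM libraries (log2 fold change -0.47, standard error 0.13, adjusted p = 0.0421). All 3 changes had the direction seen in F WT MTECs. The 2 groups of this comparison also differed in the targeted gene. Lman1 was at 12.8 CPM in both F KO naive libraries and at up to 78.1 CPM in F KO HDM libraries. The part of this difference in the response of cultures labelled KO was not tested.

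The calls of Tlr2 and Cd14 in F MTECs labelled KO each ended when any 1 of the 4 libraries was left out, with adjusted p of 0.0615 to 0.238 for Tlr2 and 0.108 to 0.229 for Cd14. Their log2 fold changes then ranged from 0.49 to 0.74 and from -0.52 to -0.44. Tlr3 remained called in each of these fits, at 1.19 to 1.34. The same fits called 373 to 907 of all genes in place of 1664. Among the remaining members, log2 fold changes ran from -0.27 for Myd88 (adjusted p = 0.1) to 0.51 for Nlrp10 (adjusted p = 0.177). Leukocyte markers summed to 132 and 137 CPM in F KO naive and 94.2 and 92.1 CPM in F KO HDM MTECs, and secretory markers to 16000 and 13200 CPM and then 7880 and 7230 CPM.

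In M MTECs none of the 10 members was called by edgeR's quasi-likelihood test in either genotype label, where it called 0% of all genes. In M WT MTECs, 2 members had an unadjusted p under 0.05, as did 665 of all genes, and DESeq2 called 0 members and 2 genes. In M MTECs labelled KO, 0 members had an unadjusted p under 0.05, as did 857 of all genes, and DESeq2 called 0 members and 1 gene. Log2 fold changes of the members ran from -0.30 (F2r) to 0.38 (Cd14) in M WT and from -0.63 (F2rl1) to 0.38 (Nlrp10) in M MTECs labelled KO. Tlr3 was at 33.4 and 28.8 CPM in M WT naive and 36.2 and 28.7 CPM in M WT HDM libraries, and the groups overlapped. Cd14 was at 563 and 427 CPM in M WT naive and 705 and 582 CPM in M WT HDM libraries, so its values in M cultures lay higher under HDM while those in F cultures lay lower.

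**Figure D2:**
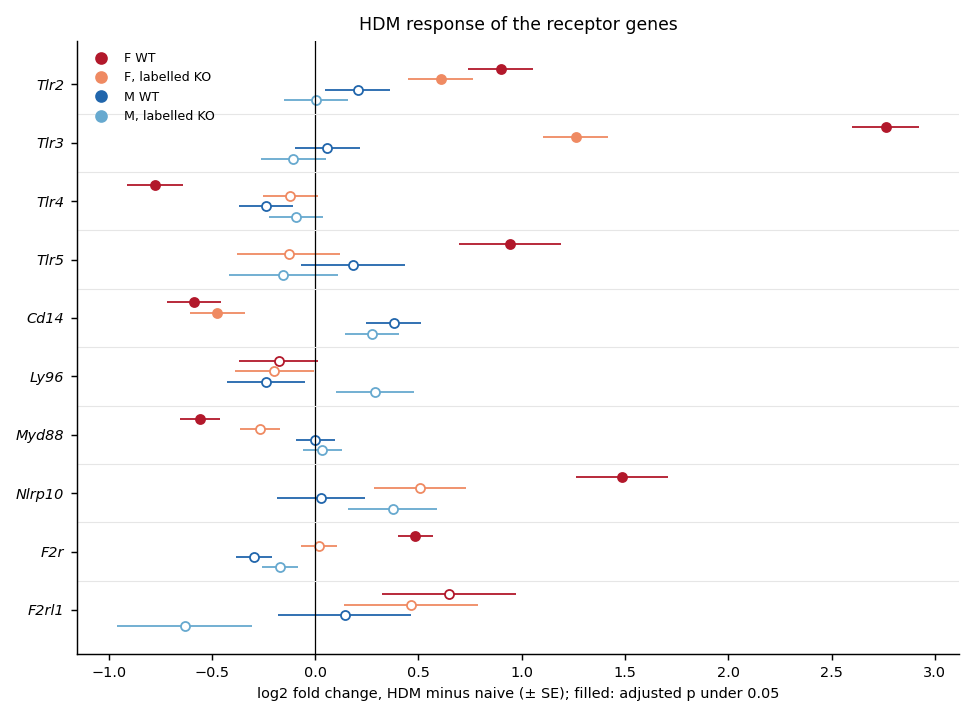
HDM response of the 10 receptor genes in the 4 backgrounds, as log2 fold change of HDM minus naive with its standard error from the edgeR fit. Filled points passed an adjusted p of 0.05. Tlr3 lies at 2.76 in F WT and 1.26 in F MTECs labelled KO, and the points of both M backgrounds lie between -0.63 and 0.38.

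Replicates of the M groups disagreed for some members, most widely for F2rl1, save in M KO HDM MTECs, where Tlr5 was at 1.43 and 0.895 CPM. F2rl1 was at 51.6 and 32.9 CPM in M WT naive, 60.5 and 32.7 CPM in M WT HDM, 53.6 and 26.6 CPM in M KO naive and 27.1 and 24.6 CPM in M KO HDM MTECs. Replicate 1 was the higher library in each. Ly96 went the other way, at 7.33 and 9.52 CPM in M WT naive and 5.95 and 8.31 CPM in M WT HDM MTECs. The ciliated cell markers of the same libraries also differed, with sums of 151 and 64.4 CPM in M WT naive, 143 and 78.5 CPM in M WT HDM and 163 and 69.2 CPM in M KO naive MTECs, and their part in these receptor values was not tested.

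Whether the sexes differed in their response was tested directly as the difference between the M and F responses. In WT MTECs, 6 of the 10 members differed, against 24.2% of all genes. The response was lower in M cultures for Tlr3 (difference of log2 fold changes -2.70, standard error 0.22, adjusted p = 1.67e-05), Nlrp10 (-1.46, adjusted p = 0.00583), F2r (-0.78, adjusted p = 0.00102) and Tlr2 (-0.69, adjusted p = 0.0406). It was higher for Cd14 (0.97, standard error 0.19, adjusted p = 0.00355) and Myd88 (0.56, adjusted p = 0.0117). The Tlr4 difference of 0.54 did not pass (adjusted p = 0.0587), nor did that of Tlr5 (-0.76, adjusted p = 0.142).

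The Tlr2 difference lost its call in 6 of the 8 fits that left out 1 library, with the highest adjusted p at 0.146 without M WT naive replicate 2, and that of Myd88 was lost without F WT naive replicate 1 (adjusted p = 0.0539). In MTECs labelled KO, Tlr3 alone differed between the sexes in response (-1.37, standard error 0.22, adjusted p = 0.0101), against 3.56% of all genes. That call ended in 4 of the 8 fits that left out 1 library, those without either M KO HDM replicate, F KO naive replicate 1 or F KO HDM replicate 2 (adjusted p = 0.0506 to 0.0682). Cd14 lay just outside the threshold (0.75, adjusted p = 0.0505).

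Levels in M and F cultures were then compared directly. In naive WT MTECs Nlrp10 was called, at 11 and 8.14 CPM in M and 3.71 and 3.24 CPM in F libraries, where 0.1% of all genes were (16 genes). The difference was 2.77-fold (log2 fold change 1.47, standard error 0.22, adjusted p = 0.0324). The call did not hold in a fit of these 4 libraries alone (adjusted p = 0.396), nor without M WT naive replicate 1 (0.349), F WT naive replicate 1 (0.21) or F WT naive replicate 2 (0.489) as adjusted p. In naive MTECs labelled KO, 0 members were called by edgeR, against 0.188% of all genes (30 genes). DESeq2 called 1 member and 218 of all genes. By edgeR 4 members had an unadjusted p under 0.05, as did 1585 of all 15993 genes. Nlrp10 there was at 7.93 and 7.21 CPM in M and 4.33 and 3.22 CPM in F libraries (log2 fold change 1.00, adjusted p = 0.121).

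Under HDM, 7 members differed between M and F WT MTECs, against 41.6% of all genes. Higher in M cultures were Cd14, at 705 and 582 CPM against 316 and 286 in F (log2 fold change 1.10, standard error 0.13, adjusted p = 7.28e-05), Tlr4 (1.03, adjusted p = 0.000128) and Myd88 (0.55, adjusted p = 0.000832). Tlr4 was at 30.6 and 28.5 CPM in M WT HDM libraries. Lower in M cultures were Tlr3 (-2.40, standard error 0.16, adjusted p = 1.15e-06), Tlr5 (-0.96, adjusted p = 0.00899), Tlr2 (-0.59, adjusted p = 0.0101) and F2r (-0.47, adjusted p = 0.00121). Nlrp10, which differed in naive WT cultures, was at 9.42 and 10.2 CPM in M and 11.7 and 7.67 CPM in F libraries under HDM, and these overlapped (log2 fold change 0.01, adjusted p = 0.964). Tlr2 lost its call without M WT HDM replicate 2 (adjusted p = 0.0766) and Tlr5 without M WT HDM replicate 1 (adjusted p = 0.0624). In a fit of these 4 libraries alone both lost it, at 0.0602 for Tlr2 and 0.0525 for Tlr5 as adjusted p.

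In the same comparison all 7 secretory (100%) and 4 of 7 basal markers (57.1%) were higher in M cultures, and 3 of 8 fibroblast markers (37.5%) were lower. Over all genes 41.6% were called, 21.3% higher and 20.3% lower. The part of these markers' cells in the receptor differences was not tested.

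In HDM cultures labelled KO, 6 members differed between the sexes, against 25.3% of all genes. Cd14 was at 684 and 672 CPM in M and 344 and 327 CPM in F libraries (log2 fold change 1.01, standard error 0.13, adjusted p = 0.000362), and Tlr3 at 27.9 and 26.8 CPM in M and 58 and 63.1 CPM in F libraries (log2 fold change -1.15, standard error 0.16, adjusted p = 0.000475). Myd88 (0.47, adjusted p = 0.00444) and Nlrp10 (0.87, adjusted p = 0.014) were higher in M cultures, and Tlr5 (-0.96, adjusted p = 0.0194) and F2rl1 (-1.003, adjusted p = 0.0433) were lower. Tlr3 and Cd14 thus differed in the same direction in both genotype labels, each beyond the spread between replicates. In this comparison 6 of 7 secretory markers were higher and 5 of 7 squamous markers lower in M cultures. The other 4 receptor calls each depended on single libraries. F2rl1 was lost with any of the 4 libraries left out (adjusted p = 0.125 to 0.201). Without M KO HDM replicate 2, Tlr5 (-0.67, adjusted p = 0.178), Myd88 (adjusted p = 0.0509) and Nlrp10 (adjusted p = 0.101) were lost too. Leaving out F KO HDM replicate 2 ended the calls of Tlr5 (adjusted p = 0.121) and Nlrp10 (adjusted p = 0.0653), and leaving out F KO HDM replicate 1 that of Nlrp10 (adjusted p = 0.0772). The count in these fits was 2 to 5, and 1734 to 2304 of all genes were called.

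**Figure D3:**
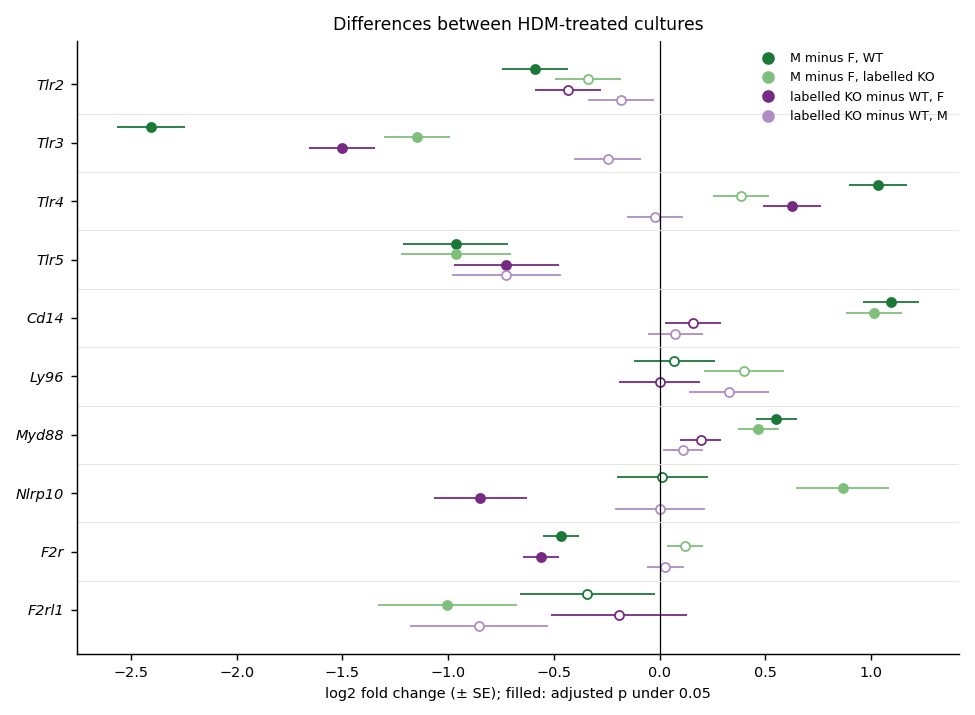
Differences among HDM-treated MTECs for the 10 receptor genes, as log2 fold change with its standard error from the edgeR fit, for M minus F in WT and labelled KO and for labelled KO minus WT in F and M. Filled points passed an adjusted p of 0.05. Tlr3 lies at -2.40 and -1.15 for M minus F and at -1.50 for labelled KO minus WT in F, and Cd14 lies at 1.10 and 1.01 for M minus F.

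Comparisons of labelled KO with WT rest on libraries that retained Lman1 at 66.6 and 78.1 CPM in F KO HDM and 12.8 CPM in both F KO naive cultures. In naive MTECs 0 members differed by label in either sex and 0% of all genes were called by edgeR. The members with an unadjusted p under 0.05 numbered 0 in each sex, and over all genes 203 in F and 867 in M MTECs, while DESeq2 called 0 members and 1 gene in each. Log2 fold changes of the members lay between -0.39 and 0.35.

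In F HDM MTECs, 5 members differed by label, against 29.2% of all genes. Tlr3 was lower in libraries labelled KO, at 58 and 63.1 CPM against 180 and 164 CPM in WT (log2 fold change -1.50, standard error 0.16, adjusted p = 9.47e-05), and F2r was lower at 161 and 164 CPM against 221 and 258 CPM (-0.56, standard error 0.09, adjusted p = 0.000961). Nlrp10, at 5.25 and 5.51 CPM in libraries labelled KO (-0.85, adjusted p = 0.0144), and Tlr5, at 2.02 and 2.51 CPM (-0.72, adjusted p = 0.047), were lower too. Tlr4 was higher, at 22.1 and 22.5 CPM against 16.6 and 12.3 CPM (0.63, standard error 0.14, adjusted p = 0.00621). Markers of cell types differed in the same comparison: 5 of 7 basal, 5 of 7 secretory and 4 of 7 squamous markers were higher in libraries labelled KO, and 3 of 8 fibroblast markers were lower (median -3.09), with fibroblast sums of 69.9 and 66.3 CPM against 49.4 and 598 CPM in WT. Basal marker sums were 13300 and 10700 CPM against 4490 and 2380 CPM, and the part of these shifts in the receptor values, the lower F2r included, was not tested. For the 5 receptor genes, F KO HDM libraries lay between F WT HDM and naive libraries or within the range of naive ones.

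Of these differences, Tlr3 and F2r were called in every fit that left out 1 library. Tlr4 was lost without F WT HDM replicate 2 (0.43, adjusted p = 0.0653). Nlrp10 was lost without F WT HDM replicate 1 (-0.51, adjusted p = 0.121) and without either F KO HDM replicate (adjusted p = 0.0692 and 0.075). Tlr5 was lost with any of the 4 left out (adjusted p = 0.0973 to 0.206) and with DESeq2 (0.0533). In M HDM MTECs, edgeR called 0 members and 0% of all genes by label, with 2 members and 2897 genes at an unadjusted p under 0.05, and DESeq2 called 0 members and 538 genes.

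The responses of F MTECs were also compared between labels. For 3 members the F response differed, against 11.2% of all genes. Tlr3 had a smaller rise in cultures labelled KO (difference -1.50, standard error 0.22, adjusted p = 0.00244), and this was called in all 8 fits that left out 1 library. F2r (-0.47, adjusted p = 0.0337) and Tlr4 (0.66, adjusted p = 0.0478) each lost the call in 7 of those 8 fits, with adjusted p up to 0.141 and 0.17, and kept it only without F WT HDM replicate 1. The same fits called 496 to 1070 of all genes when they left out any library other than F WT HDM replicate 1, against 1798 with all. In M MTECs the response differed by label for 0 members and 0% of all genes by edgeR, with 0 members and 1388 genes at an unadjusted p under 0.05, and DESeq2 called 0 of both.

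Genes that work with the receptors were then counted in lists of known roles, with the share over all tested genes beside them. Of all tested genes 43.1% were called in F WT MTECs (20.6% higher and 22.4% lower). In F MTECs labelled KO 10.4% were called (4.63% higher and 5.77% lower). The lists were chosen with earlier results of these data known, so their shares describe the lists and do not test them. Among 30 tested Toll-like receptor adaptors and signalling genes, 7 rose and 12 fell in F WT MTECs, with a median log2 fold change of -0.05, so that 63.3% were called against 43.1% of all genes. Traf3, which links TLR3 and other receptors to interferon genes, rose (0.92, adjusted p = 2.21e-05), while Tirap, the bridge between TLR2 or TLR4 and MyD88, fell (-0.64, adjusted p = 3.64e-05). Sigirr, an inhibitor of these receptors (-0.66, adjusted p = 0.000396), and Tab1, a partner of the kinase TAK1 (-0.51, adjusted p = 0.000238), fell as well. In F MTECs labelled KO, 1 rose and 4 fell (16.7% against 10.4%).

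Of 12 receptor chaperones and ligand carriers, 3 rose and 7 fell in F WT MTECs (median -1.09; 83.3% against 43.1% of all genes), and 0 rose and 4 fell in F MTECs labelled KO (median -0.41; 33.3% against 10.4%). Hsp90b1, which encodes the chaperone gp96 that folds most Toll-like receptors, rose (0.92, adjusted p = 0.000154). Genes of secreted proteins that bind microbial products were among those that fell, including Pglyrp1, a peptidoglycan-binding protein (-4.08, adjusted p = 2.32e-06), Sftpd, a collectin (-2.13, adjusted p = 1.11e-06), and Lbp, which brings lipopolysaccharide to CD14 (-1.54, adjusted p = 0.000105). In M WT HDM cultures all 3 were higher than in F WT HDM cultures, by 4.40 for Pglyrp1, 2.32 for Sftpd and 2.26 for Lbp on the log2 scale. Pglyrp1, Sftpd and Lbp also fell in F MTECs labelled KO, by 1.97, 1.52 and 1.31 on the log2 scale.

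Other pattern receptors were measured by 28 tested genes of 33, of which 5 rose and 7 fell in F WT MTECs (median -0.44), and 0 rose and 3 fell in F MTECs labelled KO. These shares, 42.9% and 10.7%, were near those of all genes, 43.1% and 10.4%. Cd36, a scavenger receptor that works with TLR2, fell from a mean of 64.5 to 4.08 CPM (-3.97, adjusted p = 2.74e-07), and Clec2d, a lectin-like receptor, fell (-1.69, adjusted p = 0.00013). Ddx58, which encodes the cytosolic RNA sensor RIG-I, rose (1.10, adjusted p = 3.77e-05) together with Tlr3. Nlrx1, a mitochondrial NOD-like receptor, fell (-0.66, adjusted p = 0.000108). Of 13 tested inflammasome genes of 18, 2 rose and 3 fell in F WT MTECs (median -0.25), which is 38.5% against 43.1% of all genes. Pycard, the adaptor ASC (-2.30, adjusted p = 2.26e-05), Casp4 (-0.92, adjusted p = 5.02e-05) and Nek7 (-0.87, adjusted p = 1.88e-05) fell, and Ripk2, the kinase of NOD1 and NOD2, rose (0.65, adjusted p = 0.00227). The same 3 inflammasome genes were those that fell in F MTECs labelled KO, by 0.85, 0.53 and 0.50 on the log2 scale (23.1% of the list against 10.4% of all genes). There all 3 lost their call without F KO naive replicate 1 (adjusted p = 0.135 for Pycard, 0.109 for Casp4 and 0.0684 for Nek7) and without F KO HDM replicate 2 (0.238, 0.107 and 0.0562), and Pycard also without F KO naive replicate 2 (0.109). In F WT MTECs the value of Pycard was -2.91 without F WT HDM replicate 1.

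Around the protease receptors, 5 of 18 signalling genes rose and 4 fell in F WT MTECs (median 0.14), 50% against 43.1% of all genes. In F MTECs labelled KO 0 were called by edgeR, against 10.4% of all genes. There 4 of the 18 had an unadjusted p under 0.05, as did 4129 of all 15993 genes. F2rl2, which encodes PAR3, was at a mean of 0.0813 CPM in naive and 1.59 CPM in HDM libraries and rose (log2 fold change 4.19, adjusted p = 0.00065). Thbd, the thrombin-binding thrombomodulin, rose from a mean of 2.06 to 25.1 CPM (3.59, adjusted p = 0.00129). Its F WT HDM libraries were far apart, at 9.44 and 40.7 CPM. The higher, replicate 2, was the one with fibroblast markers at 598 CPM. In F WT naive MTECs, fibroblast sums were 27.4 and 547 CPM and Thbd was at 1.525 and 2.583 CPM. The part of fibroblasts in Thbd was not tested. Without F WT HDM replicate 2 the log2 fold change of Thbd was 2.18, and without F WT HDM replicate 1 it was 4.28. The G protein genes Gnai2 (0.62, adjusted p = 0.000216) and Gna12 (0.47, adjusted p = 0.000189) rose. Of 24 tested trypsin-like proteases and inhibitors of 30, 6 rose and 9 fell in F WT MTECs (median -0.19; 62.5% against 43.1% of all genes), and 0 rose and 5 fell in F MTECs labelled KO (20.8% against 10.4%). The transmembrane protease genes named by the smallest p fell in F WT MTECs, Tmprss4 from a mean of 66.3 to 4.06 CPM (-4.02, adjusted p = 6.05e-07), Tmprss11d (-3.62, adjusted p = 1.88e-05) and Tmprss11g (-2.80, adjusted p = 3.78e-06). Klk8, a kallikrein, rose from a mean of 0.815 to 7.19 CPM (3.13, adjusted p = 9.25e-05).

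NF-kB target genes lie downstream of all these receptors. Of 24 tested genes of 26, 8 rose and 4 fell in F WT MTECs (median 0.34; 50% against 43.1% of all genes), and 2 rose and 2 fell in F MTECs labelled KO (median 0.13; 16.7% against 10.4%). Tnfaip3, the feedback inhibitor A20, was at a mean of 23.3 CPM in naive and 159 CPM in HDM libraries (2.77, adjusted p = 0.000143). Relb (0.86, adjusted p = 8.41e-05) and Nfkb2 (0.56, adjusted p = 0.000375), subunits of the alternative NF-kB pathway, rose, and Sod2, a mitochondrial superoxide dismutase, fell (-0.44, adjusted p = 0.000436). Relb and Nfkb2 rose in F MTECs labelled KO too (0.47 and 0.35, adjusted p = 0.0184 and 0.0268). Nfkb2 lost that call with any of the 4 libraries left out (adjusted p = 0.0655 to 0.207), and Relb without F KO naive replicate 1 (0.173), F KO HDM replicate 1 (0.087) or F KO HDM replicate 2 (0.0951). None of the genes of these 7 lists was called in M MTECs by edgeR, where no tested gene was. At an unadjusted p under 0.05 the lists held 0 to 5 genes each in M WT and 0 to 4 in M MTECs labelled KO. Of the NF-kB targets these were 5 and 4 of 24, and of all genes 665 and 857 of 15993. The median log2 fold change of the NF-kB targets was 0.35 in M WT MTECs, against -0.001 over all genes.

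**Figure D4:**
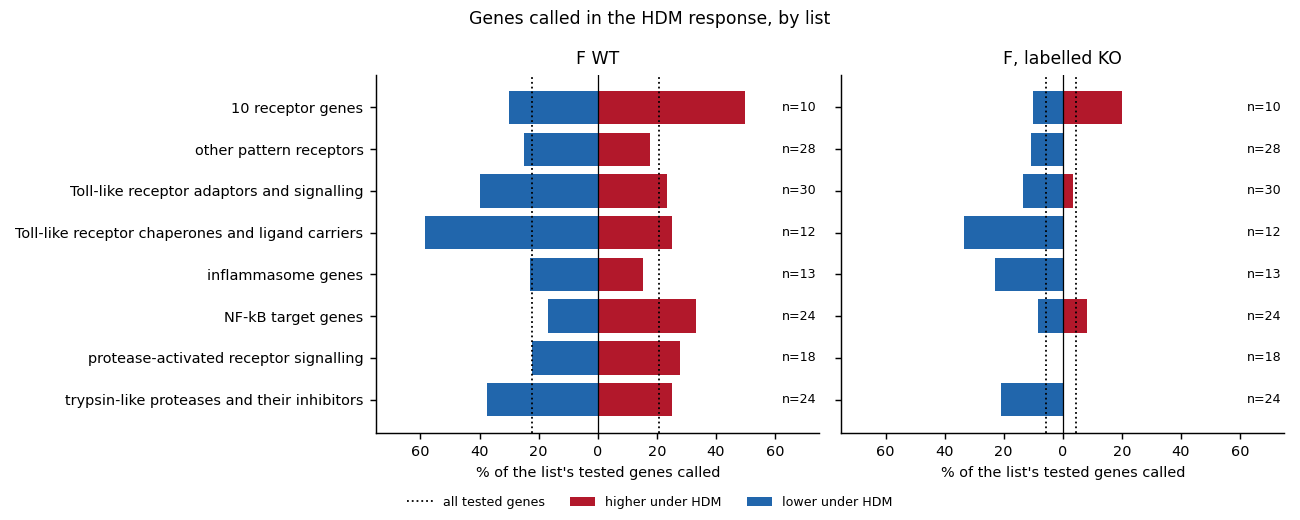
Share of each list's tested genes called higher (red, to the right) or lower (blue, to the left) under HDM in F WT MTECs and in F MTECs labelled KO, in percent, with dotted lines at the share over all tested genes. In F WT MTECs 5 of the 10 receptor genes rose and 3 fell, and among the 12 chaperones and ligand carriers 3 rose and 7 fell.

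Over the 16 libraries, the genes whose levels followed a member most closely were described by Pearson's r on the log2(CPM + 1) scale among genes with a mean of at least 5 CPM. These libraries differ in treatment, sex, genotype label and depth, so r describes a shared pattern over them and nothing else. Tlr3 was followed by Flt4, Sorbs2 and Ano6 (each r = 0.988), Tlr4 by Alcam (0.989) and Cd14 by Muc20 (0.969), a mucin gene. Myd88 was followed by Cutc (0.976), F2rl1 by Etv4 (0.969), Nlrp10 by Sp100 (0.945), Tlr2 by Cpne8 (0.939), Tlr5 by Inhba (0.927), Ly96 by Arfip1 (0.919) and F2r by Gng12 (0.906). No member was among the 3 genes closest to another member, and Tlr5 could not be, since its mean was under 5 CPM. Between members, r ran from -0.912 (Tlr3 and Myd88) to 0.922 (Tlr2 and Tlr3).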

How the data were processed

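RNA was measured in 16 MTEC libraries, 2 in each of 8 groups taken from GEO's labels. The values the authors deposited are unnormalized read counts for each Ensembl gene. The submitters' processing notes name Trimmomatic version 0.36, STAR version 2.5.2b, featureCounts of Subread version 1.5.2, DESeq2 and GRCm38; strand setting and annotation release are not given in the sources used here. Columns were matched to samples by name, the column without a number being replicate 1 of its group.

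Symbols were taken from GENCODE M21 (49056 of 49315 identifiers matched). Tests used edgeR version 4.0.16 in R version 4.3.3: filterByExpr by group, TMM scaling, and a two-sided quasi-likelihood test of the 8 group means over 15993 genes, called at a Benjamini-Hochberg adjusted p under 0.05. CPM are counts scaled to a common TMM-adjusted library size. The common biological coefficient of variation was 0.142. With 2 libraries per group, whose pools may share animals, p-values measure only the spread between these libraries. Alternatives were DESeq2 version 1.42.0, no filter, upper-quartile or plain library-size scaling, a fit of the compared libraries alone, replicate blocks and leaving out each library, for the named list genes in the F responses chosen after seeing the data. The steps were tested on simulated data.

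Named were all members, Lman1, the 4 genes of each list with the smallest p among those called in the F WT HDM response, and the 3 genes most correlated with each member, of which the first is given except for Tlr3. Members and lists were chosen with earlier results of these data known. Promoters came from RefSeq; protein sequences were not used here. Figures used Python version 3.11.15 and matplotlib version 3.10.9.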

Additional observations from a re-analysis of the deposited data

Results flagged for a closer look

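For 10 results the HDM response differed between 2 backgrounds by the test of the difference itself, as adjusted over all genes by edgeR. In WT MTECs the response was lower in M than in F cultures for Tlr3 (-2.70 on the log2 scale), Nlrp10 (-1.46), F2r (-0.78) and Tlr2 (-0.69), and higher for Cd14 (0.97) and Myd88 (0.56). In MTECs labelled KO it was lower in M cultures for Tlr3 (-1.37). In F MTECs it was lower in cultures labelled KO than in WT for Tlr3 (-1.50) and F2r (-0.47), and higher for Tlr4 (0.66). Some of these calls depended on single libraries, as described above. They were those of Tlr2 and Myd88 in WT, Tlr3 between the sexes in MTECs labelled KO, and F2r and Tlr4 between labels. The WT comparisons between the sexes use the same F WT libraries as the F comparisons between labels, so these results are not independent of each other. Libraries labelled KO retained Lman1 transcript, at 66.6 and 78.1 CPM in F KO HDM cultures. No group has 4 or more libraries, so single libraries were not tested for standing apart within a group.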

How the results depend on the processing

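Counts of called members that moved by over 1.5 times were as follows. With DESeq2, 3 members in place of 1 differed between the sexes in naive WT MTECs, 1 in place of 0 in naive MTECs labelled KO, and 2 in place of 1 had a sex difference in response in MTECs labelled KO. Without the filter on low counts these were 2, 1 and 3, and 1 member in place of 0 was called in each of the HDM response of M MTECs labelled KO, the label difference in M HDM MTECs and the label difference in M response. With only the compared libraries, 0 differed between the sexes in naive WT MTECs and 2 in response in MTECs labelled KO. The latter count was also 2 with upper-quartile scaling, with library size only and with either replicate block. Leaving out 1 library gave 1 in each fit (against 3) for the HDM response of F MTECs labelled KO, 2 to 5 (against 6) for the sex difference under HDM in libraries labelled KO, 3 in each fit (against 5) for the label difference in F HDM MTECs, 1 to 3 (against 3) for its response, 0 to 2 (against 1) for the sex difference in response in MTECs labelled KO and 0 to 1 (against 1) for that in naive WT MTECs. In F WT MTECs it gave 7 or 8 (against 8). Smaller moves were those to 9 (F WT response, against 8) and 4 (F KO response, against 3) without the filter or with the compared libraries alone. Over the settings other than leaving out a library, the WT HDM sex difference held 5 to 8 (against 7), that of HDM cultures labelled KO 6 to 8 (against 6), the F HDM label difference 4 or 5 (against 5), the WT sex difference in response 5 to 7 (against 6) and the F label difference in response 2 to 4 (against 3).

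Replicate numbers did not clearly pair the libraries: replicate differences correlated at 0.359 (F WT), -0.156 (F KO), 0.61 (M WT) and -0.074 (M KO) between naive and HDM groups. With the replicate block within sex and genotype, 9 members were called in F WT and 3 in F KO.

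Single members were recomputed in both F responses and wherever they were called, and not for the other uncalled values. Among these, signs changed for values that were not called in F MTECs labelled KO: F2r from 0.02 to -0.002 with upper-quartile scaling and -0.024 to 0.063 over left-out libraries, and Tlr5 from -0.13 to between -0.295 and 0.012.

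Over all genes, DESeq2 called 209 and 218 in the naive sex differences (against 16 and 30), 538 in the label difference of M HDM MTECs (against 0) and 1192 in the sex difference in response of MTECs labelled KO (against 569). Without the filter, HDM responses called 149 (M WT) and 705 (M KO), and 2717 (F KO, against 1664, or 2804 with only the compared libraries). It called 644 and 859 in the naive sex differences, 135 (F) and 98 (M) in the naive and 1896 in the M HDM label differences, 3029 (F, against 1798) and 668 (M, against 0) in the label difference in response, and 1977 in the sex difference in response labelled KO, where the replicate block within sex and genotype gave 1062 and left-out libraries 52 to 1112. With the compared libraries alone the naive sex differences held 5 and 9 genes and the WT HDM sex difference 3916 (against 6657). Without F WT naive replicate 1 the F WT response called 4576 (against 6887) and the WT sex difference in response 2262 (against 3866), and without F WT HDM replicate 2 the latter called 2484, the WT HDM sex difference 4219 and the F HDM label difference 1701 (against 4669, or 2077 without F KO HDM replicate 2). With 26 counts or more per library, Tlr5 is the member whose precision depth limits most.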
